A study of Rattus norvegicus with 8 samples.

Results

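The transcription factor Myc and 9 genes of ribosome production and polyamine synthesis were described in microdissected rat liver cells. The 10 genes were Myc, Ncl, Npm1, Fbl, Nop56, Nop58, Pes1, Bop1, Polr1b and Odc1, and their probes were taken by gene name among the array's non-control probes. All 10 were on the array, with 17 of its 45598 distinct probes and 100 of its 58717 non-control spots, beside 27109 named genes in all. Every one of the 733 spot readings of these probes with a background mark was well above background, so all 17 probes passed the filter on dim signals.

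The samples were 3 of small hepatocyte-like progenitor cell (SHPC) clusters from livers that received bone marrow-derived mesenchymal cells (BM-MCs), 3 of SHPC clusters from control livers without transplantation, and 2 of mature hepatocytes (MHs) from control livers. The paper's discussion of its array clustering can be read as placing the MHs in transplanted livers, so their origin is not certain. All recipients were F344 rats given retrorsine, an alkaloid that blocks hepatocyte division, followed by partial hepatectomy, and SHPCs are the clusters of small hepatocytic cells that grow in such livers. The labels give every sample as the DPPIV+ strain, whereas the methods describe female DPPIV- recipients and DPPIV+ male donors; no source used here gives the age of the recipients. Livers were collected 14 days after transplantation and the cells were cut from frozen sections by laser microdissection (LMD). The BM-MCs came from the marrow of 1 rat aged 5 weeks and were not purified, and no sample is tied to an animal, so the p-values measure only the spread between these samples, which may be technical.

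RNA was read on 1-colour Agilent arrays, and each value below is a log2 processed signal minus that of its array's 75th percentile. On each array 57.0% to 61.5% of spots exceeded background clearly, and saturation was absent. The marks of control SHPC replicate 2 covered 19479 spots only. The first set of 4 arrays on the slide held both MHs and control SHPC replicates 1 and 2, and the second held the 3 BM-MC samples with control SHPC replicate 3, so position on the slide and transplantation largely coincided. All 8 hepatocyte markers passed the filter on dim signals, and their summed linear signal lay between 734 and 984 times the 75th percentile over the 8 samples. Of 6 biliary markers 4 passed it, while Krt7 and Spp1 did not. Summed erythroid markers (5 genes) were at 69.4 in control SHPC replicate 3 and at 20.5 to 21.4 in the other controls, 10.2 to 13.9 with BM-MCs and 13.2 to 26.8 in MHs.

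Myc is a basic helix-loop-helix factor that binds DNA with its partner Max, typically at the sequence CACGTG (an E-box). It is known for raising the output of ribosomes, through RNA polymerase I, the ribosomal protein genes and the nucleolar factors that cut, modify and assemble ribosomal RNA, and it is induced early when the liver regenerates. Odc1, the rate-limiting enzyme of polyamine synthesis, is a classical Myc target, and Ncl, Npm1, Fbl, Nop56, Nop58, Pes1, Bop1 and Polr1b act in the nucleolus.

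The array reads each gene with oligos of 60 bases. The 4 shown here are those of Bop1 and Polr1b, each measured by a single spot, the second probe of Odc1, which differed in size from the brightest, and the Ncl probe with the largest difference of its 3. They are printed as the array's design gives them, with coordinates on rn4, and at least 1 of the 3 reading frames of each has no stop codon.
Odc1, chr6:41313685-41313744, plus strand: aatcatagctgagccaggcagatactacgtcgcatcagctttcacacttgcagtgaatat
Ncl, chr9:85113151-85113210, minus strand: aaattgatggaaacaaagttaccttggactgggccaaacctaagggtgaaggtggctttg
Bop1, chr7:114500906-114501053, minus strand: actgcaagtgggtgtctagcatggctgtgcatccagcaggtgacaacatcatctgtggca
Polr1b, chr3:116730202-116730261, plus strand: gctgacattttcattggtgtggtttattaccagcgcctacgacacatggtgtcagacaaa
The Bop1 oligo spans 148 genomic bases and therefore crosses an intron, while the other 3 lie within 60 genomic bases.

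Myc was higher in SHPCs of livers transplanted with BM-MCs than in control SHPCs, by a fold that did not pass the adjusted threshold. Its probe lies on chromosome 7 from 98957687 to 98957746 (rn4, plus strand) and was printed on 2 spots, whose SD on an array ran from 0.007 to 0.079. The SHPCs with BM-MCs were at 0.62, -0.22 and 0.17 in replicates 1, 2 and 3, the control SHPCs at -0.60, -0.70 and -0.92, and the MHs at -0.75 and -0.34. All 3 BM-MC samples lay above every control and above both MHs, and BM-MC replicate 1 was the highest of the 8 samples. The means were 0.19 ± 0.42 (SD, n = 3) in the transplanted group, -0.74 ± 0.17 (SD, n = 3) in control SHPCs and -0.55 ± 0.29 (SD, n = 2) in MHs. Myc was thus 1.91-fold higher with BM-MCs than in controls, a log2 difference of 0.93 (standard error 0.23, 95% interval 0.38 to 1.49, limma's unadjusted p = 0.0058, Benjamini-Hochberg adjusted p = 0.171). In such cut samples, a change in the share of a cell type and a change in RNA per cell cannot be told apart. Set against control SHPC replicate 3, the control in the same set of 4 arrays, the difference was 1.11. Without BM-MC replicate 1 it was 0.72 and without BM-MC replicate 2 it was 1.14. Over 21 alternatives the adjusted p from limma or the methods' t-test ran from 0.0851 to 0.439. Control SHPCs and MHs overlapped, with a log2 difference of -0.20 (95% interval -0.80 to 0.40, adjusted p = 0.702 from limma), and SHPCs with BM-MCs exceeded MHs by 0.73 (95% interval 0.13 to 1.33, adjusted p = 0.322 from limma).

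**Figure D1:**
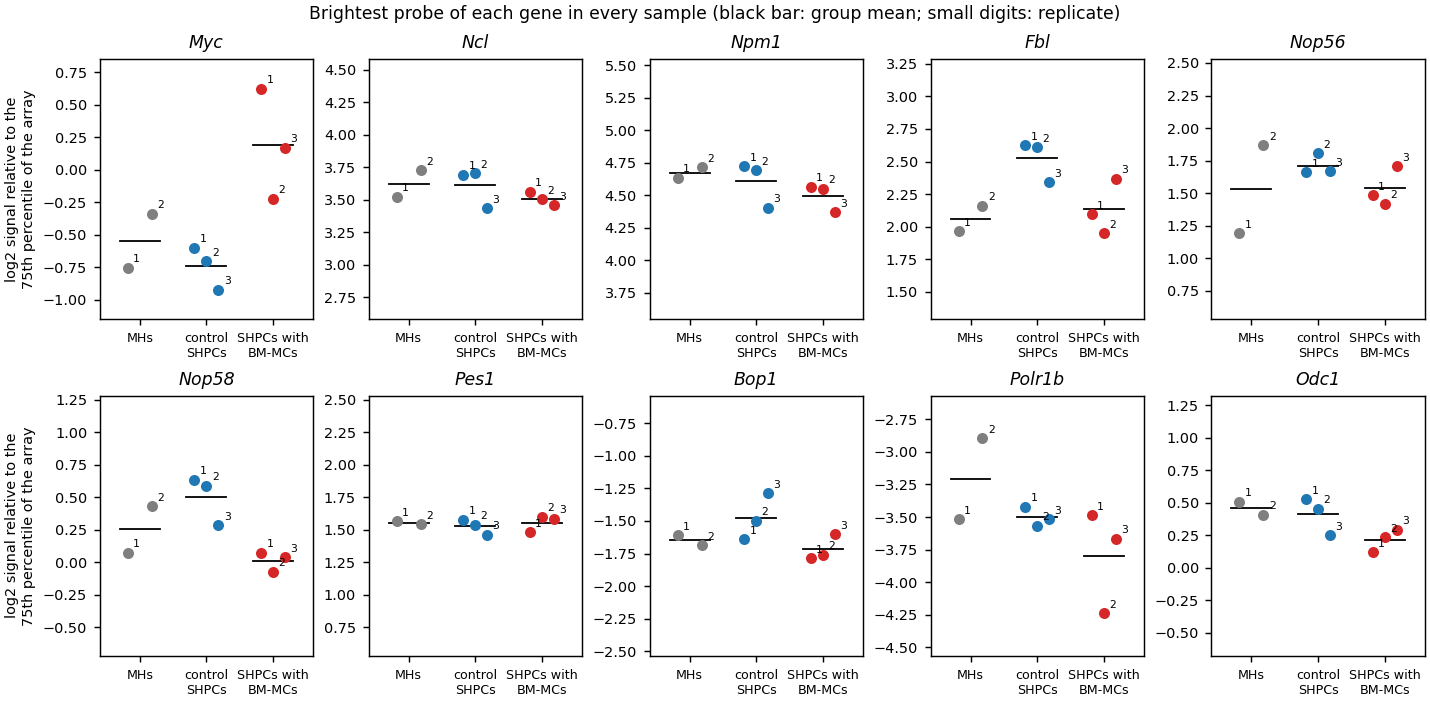
Log2 signal of the brightest probe of each of the 10 genes minus its array's 75th percentile (y axis, a span of 2 log2 units in every panel) in MHs (grey), control SHPCs (blue) and SHPCs with BM-MCs (red); points are samples with their replicate number and black bars are group means. The 3 red points of Myc lie above the blue and grey ones, and the red points of Nop58 lie below the blue ones.

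The 2 abundant nucleolar proteins among the 10 genes are nucleolin (Ncl), which binds nascent ribosomal RNA, and nucleophosmin (Npm1), a chaperone of ribosome assembly and export. The brightest Ncl probe, on chromosome 9 from 85112752 to 85112811 (minus strand), was at 3.56, 3.50 and 3.46 with BM-MCs, at 3.69, 3.71 and 3.44 in control SHPCs and at 3.52 and 3.73 in MHs. The 3 groups overlapped, and the log2 difference between SHPCs with BM-MCs and controls was -0.10 (95% interval -0.39 to 0.19, adjusted p = 0.68 from limma). Without control SHPC replicate 3 it was -0.19 and without control SHPC replicate 2 it was -0.06. The other 2 Ncl probes gave -0.21 and -0.06 for the same comparison. Npm1 was read by 4 probes on chromosome 10, of which 2 span 716 and 935 genomic bases and so cross introns. Its brightest probe, from 18052017 to 18052076 (minus strand), was at 4.57, 4.55 and 4.37 with BM-MCs, at 4.72, 4.69 and 4.41 in control SHPCs and at 4.63 and 4.71 in MHs. The lowest Npm1 sample of each SHPC group was replicate 3. All 4 probes gave a log2 difference between -0.13 and -0.10 against control SHPCs, with 95% intervals within -0.49 and 0.28. Leaving out control SHPC replicate 3 gave -0.21 on the brightest probe, and leaving out BM-MC replicate 3 gave -0.05. Against MHs, 3 of the 4 probes were lower in all BM-MC samples than in both MHs, with log2 differences of -0.18 to -0.13 (adjusted p = 0.601 to 0.70 from limma).

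Fibrillarin (Fbl), the methyltransferase, and the core proteins Nop56 and Nop58 belong to the box C/D small nucleolar ribonucleoprotein (snoRNP), which guides the methylation of ribosomal RNA. Nop58 had the largest difference of the 3 with BM-MCs. Its probe, on chromosome 9 from 58279436 to 58279495 (plus strand), was at 0.075, -0.07 and 0.04 with BM-MCs, at 0.63, 0.59 and 0.29 in control SHPCs and at 0.075 and 0.43 in MHs. Every BM-MC sample was below every control, and the highest BM-MC value equalled the lower MH value at the printed precision. The log2 difference was -0.49 (standard error 0.13, 95% interval -0.81 to -0.17), a level 1.40-fold lower, with an unadjusted p = 0.00933 and an adjusted p = 0.192 from limma. It was -0.27 against control SHPC replicate 3 alone, which was the lowest control. Fbl, on chromosome 1 from 83280992 to 83281051 (plus strand), was at 2.10, 1.95 and 2.37 with BM-MCs, at 2.62, 2.61 and 2.34 in control SHPCs and at 1.97 and 2.16 in MHs. BM-MC replicate 3 reached the lowest control, so those groups overlapped, while every control SHPC sample was above both MHs. Its log2 difference with BM-MCs was -0.39 (95% interval -0.76 to -0.01, adjusted p = 0.288 from limma) and -0.20 against control SHPC replicate 3 alone. On the Fbl probe 10 of 80 spots were left out as outliers. Nop56 was read by 2 probes, and the brighter is assigned to chromosome 9 from 70791514 to 70791573 (plus strand) while the dimmer is on chromosome 3 from 117892273 to 117892332 (plus strand), so the brighter may also read a copy and its level is uncertain. They differed from control SHPCs by -0.17 and -0.15 with BM-MCs, and both overlapped. Without BM-MC replicate 2 the difference on the brighter was -0.115. MH replicates 1 and 2 lay far apart on both, at 1.19 and 1.87 on the brighter and at 0.30 and 1.11 on the dimmer, against 1.66 to 1.80 and 0.97 to 1.08 in the control SHPCs.

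Pes1 and Bop1 form a complex that matures the RNA of the large ribosomal subunit. Pes1 was the steadiest of the 10 genes, with all 8 samples between 1.46 and 1.60 and a log2 difference of 0.03 with BM-MCs against controls (95% interval -0.22 to 0.28, adjusted p = 0.903 from limma). Its probe lies on chromosome 14 from 84632771 to 84632830 (plus strand) and has 10 spots per array. Bop1 was at -1.79, -1.76 and -1.60 with BM-MCs, at -1.64, -1.497 and -1.29 in control SHPCs and at -1.61 and -1.68 in MHs. Control SHPC replicate 3 was the highest Bop1 sample, in contrast to Nop58 and Fbl, where it was the lowest control. The difference with BM-MCs was -0.24 (95% interval -0.56 to 0.08, adjusted p = 0.396 from limma) and -0.43 against control SHPC replicate 3 alone, and without that replicate it was -0.15.

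Polr1b, the second largest subunit of RNA polymerase I, gave processed signals of 76 to 227.5, where the lowest signals well above background on the arrays were 21.15 to 30.07. It was at -3.49, -4.24 and -3.67 with BM-MCs, at -3.42, -3.57 and -3.52 in control SHPCs and at -3.52 and -2.90 in MHs. BM-MC replicate 2 and MH replicate 2 were the extremes, and each stood apart from the other sample or samples of its group. The log2 difference with BM-MCs was -0.30 against control SHPCs (95% interval -0.79 to 0.20, adjusted p = 0.488 from limma) and -0.59 against MHs (95% interval -1.20 to 0.02, adjusted p = 0.385 from limma), and the former was -0.08 without BM-MC replicate 2 and -0.45 without BM-MC replicate 1. The difference from MHs was -0.90 without MH replicate 1 and -0.28 without MH replicate 2.

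The 2 probes of Odc1 differed in size. The brightest probe, on chromosome 6 from 41315531 to 41315590 (plus strand), was at 0.12, 0.23 and 0.29 with BM-MCs, at 0.53, 0.45 and 0.25 in control SHPCs and at 0.51 and 0.41 in MHs, and the SHPC groups overlapped through control replicate 3. The second probe, whose sequence is given above, was at -1.15, -1.20 and -1.04 with BM-MCs, at -0.70, -0.60 and -0.70 in control SHPCs and at -1.03 and -0.92 in MHs. On the second probe all BM-MC samples were below all controls and both MHs. The log2 differences from controls were -0.20 (95% interval -0.49 to 0.10, unadjusted p = 0.157, adjusted p = 0.445 from limma) on the brightest probe and -0.46 (95% interval -0.72 to -0.21, unadjusted p = 0.00395, adjusted p = 0.16 from limma) on the second. Against control SHPC replicate 3 alone they were -0.035 and -0.425. Both are given because neither probe can be taken as the better measure from these data.

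Taken by the brightest probe of each gene, limma with Benjamini-Hochberg adjustment called 0 of the 10 genes higher and 0 lower with BM-MCs against control SHPCs at an adjusted p under 0.05, where the background over 14504 genes was 0.0276% higher and 0% lower. That background was 4 genes higher, and it moved to 254 higher and 31 lower without control SHPC replicate 3, and to 160 and 42 with array weights, with 0 members called in either. At an unadjusted p under 0.05 from limma, Myc was higher and Nop58 and Fbl were lower, where 10.3% of all genes were higher and 5.87% lower. The methods' t-test found Myc higher and Nop58 lower at an unadjusted p under 0.05, where it put 8.24% of all genes higher and 6.96% lower, and 0 members after Benjamini-Hochberg adjustment. Groups without overlap were found for Myc (above) and Nop58 (below), against 13.1% and 11.2% of all genes. The difference was above 0 in 2 and below 0 in 8 of the 10 genes, against 53.5% and 46.5% of all genes, and the median was -0.19 against 0.03. With each array scaled to its median, 9 of 10 were below 0, against 10225 of all 14504 genes, and the median of all genes itself moved to -0.17. With quantile normalization 7 of 10 were below 0, against 7306 of 14504 genes. Within the second set of 4 arrays 6 of 10 were below 0, against 7378 of 14426 genes, with a median of -0.08 against -0.009.

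**Figure D2:**
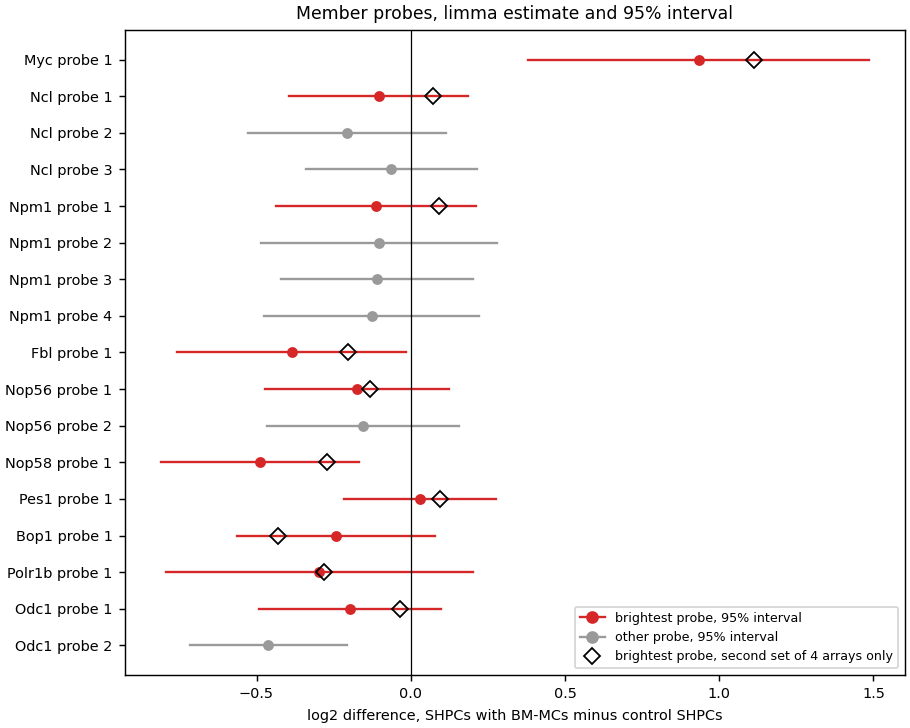
Log2 difference of SHPCs with BM-MCs from control SHPCs (x axis) for the 17 probes of the 10 genes, with 95% intervals from limma as horizontal lines; red marks the brightest probe of a gene, grey the others, and open diamonds the difference from control SHPC replicate 3 alone. Myc is at 0.93 and all other probes lie between -0.49 and 0.03.

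The pathway around the members was described with lists of genes from general knowledge. Of the Myc/Max network, which holds Myc, Max and the factors that compete for Max or for the related protein Mlx, 10 of 13 genes were tested, 6 were above 0 and 4 below with BM-MCs, and the median was 0.13. Beside Myc, Mlxipl, a glucose-responsive partner of Mlx, had the lowest p at 0.76 (adjusted p = 0.182 from limma). Max itself averaged -3.18 in controls against -3.57 after transplantation, and the standard error of this difference was 0.62, with control samples spread by an SD of 1.34. Of the 15 genes of RNA polymerase I transcription, 7 were above 0 and 8 below, and Taf1d, a subunit of the promoter selectivity factor, had the lowest p at 0.52 (adjusted p = 0.182 from limma). The snoRNP and assembly factors, 14 genes tested, had 13 below 0 with a median of -0.20, led by Gar1, a box H/ACA protein, at -0.49 (adjusted p = 0.17 from limma). The list holds Fbl, Nop56 and Nop58, and within the second set of 4 arrays its median was -0.13 with 11 of 14 below 0.

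In the small subunit processome, the complex that first folds and cuts the precursor RNA, 25 of 36 genes were below 0 with a median of -0.08, and Emg1, a methyltransferase, was at -0.47 (adjusted p = 0.258 from limma). Without BM-MC replicate 2 the count was 20 and the median -0.04, without control SHPC replicate 2 or BM-MC replicate 1 the median was -0.12, and within the second set of 4 arrays it was -0.14. Large subunit assembly had 29 of 40 genes below 0 and a median of -0.08 (-0.05 without BM-MC replicate 1), and Ddx55, a helicase, was 0.49 higher (adjusted p = 0.165 from limma). Among 7 nucleolar chaperones and helicases 6 were below 0, and Ddx21 was at -0.36 (adjusted p = 0.247 from limma). Ran, the GTPase of nuclear transport, was at -0.44 (adjusted p = 0.237 from limma) among 7 genes of subunit export and maturation, of which 5 were below 0. Polyamine genes had 9 of 14 below 0 and a median of -0.14, with the antizyme Oaz1 at -0.35 (adjusted p = 0.281 from limma). Other Myc targets had 25 of 28 below 0 with a median of -0.15, and Rrm1, a ribonucleotide reductase subunit, was at -0.62 (adjusted p = 0.261 from limma). No gene of these lists passed the adjusted threshold in this comparison.

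All 76 cytosolic ribosomal protein genes tested were below 0 with BM-MCs against control SHPCs, with a median of -0.16, and 37 of them had groups without overlap, against 11.2% of all genes. The count depended on the scaling and the arrays: 66 were below 0 after quantile normalization and 65 within the second set of 4 arrays, where the median was -0.08 in both cases, and 56 with normexp and quantile normalization on the 7 arrays other than control SHPC replicate 2, with a median of -0.06. With each array scaled to its median all 76 were below 0 with a median of -0.36, and the snoRNP, small subunit and large subunit lists had medians of -0.395, -0.27 and -0.275, while all genes moved to -0.17. Proliferation genes had 20 of 20 below 0 with a median of -0.86, and 17 of them reached an unadjusted p under 0.05 in limma but 0 the adjusted threshold. At that unadjusted p limma put 5.87% of all genes lower. Without control SHPC replicate 3, 19 of the 20 were below 0 with a median of -1.01, and 1 passed the adjusted threshold. Ccnb1, the mitotic cyclin B1, averaged -1.89 ± 0.11 (SD, n = 3) in controls against -2.93 ± 0.41 (SD, n = 3) after transplantation, a difference of -1.03 (adjusted p = 0.142 from limma). Within the second set of 4 arrays the proliferation median was -0.55, with 20 of 20 below 0. Myc and the proliferation genes thus stood on opposite sides of the controls in the BM-MC samples.

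**Figure D3:**
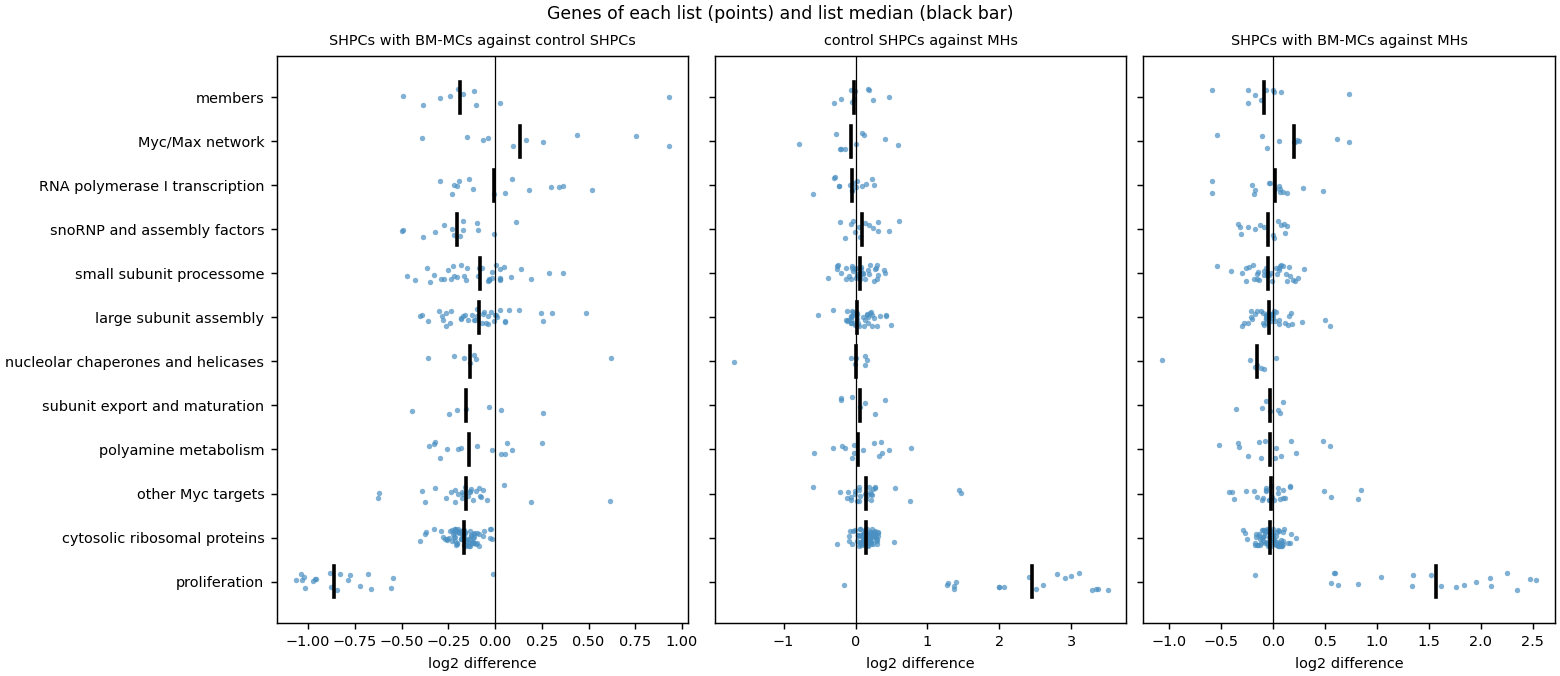
Log2 difference (x axis, scales differ between panels) of each tested gene (blue points) and the list median (black bars) for the 10 members, 10 pathway lists and the proliferation list in the 3 comparisons. Proliferation genes lie at a median of -0.86, 2.46 and 1.57 from left to right, whereas the medians of the members lie at -0.19, -0.02 and -0.09.

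Between control SHPCs and MHs, limma called 0 of the 10 members higher and 0 lower, where 1% of all genes were higher and 0.221% lower by that threshold. By the brightest probe of each gene, Fbl alone reached an unadjusted p under 0.05, by limma and by the methods' t-test, and 0 members did after Benjamini-Hochberg adjustment of the latter. At that unadjusted p limma put 7.72% of all genes higher and 12.6% lower, and the methods' t-test 7.49% and 10.9%. It was 1.38-fold higher in control SHPCs, a log2 difference of 0.46 (95% interval 0.07 to 0.85, adjusted p = 0.212 from limma), and was the only member whose brightest probe had groups without overlap, against 16.8% of all genes above and 25.4% below. The second Odc1 probe was also above both MHs in all control SHPCs, by 0.31 (unadjusted p = 0.0286, adjusted p = 0.217 from limma), while the brightest one gave -0.05. Over the 10 genes 4 were above 0 and 6 below, against 42.7% and 57.3% of all genes, with a median of -0.02 against -0.06, and within the first set of 4 arrays 8 were above 0 with a median of 0.06. Ribosomal protein genes had 69 of 76 above 0 and a median of 0.14, with Rps2 at 0.54 (adjusted p = 0.135 from limma), but 55 of 76 and a median of 0.05 without scaling.

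The same comparison separated the proliferation genes widely. Of 20, 12 passed the adjusted threshold higher in control SHPCs and 19 were above 0, with a median of 2.46. Ccna2, cyclin A2, was 3.51 higher (standard error 0.26, adjusted p = 0.00246 from limma), Top2a, the topoisomerase of dividing cells, 3.37 (adjusted p = 0.00328 from limma) and Ccnb1 3.28 (adjusted p = 0.00246 from limma). Bub1b, a checkpoint kinase, was not well above background in either MH and was at least 2.51-fold higher in control SHPCs, counting each dim MH array at its lowest signal well above background (adjusted p = 0.00246 from limma on the measured signals). The number past the threshold was 6 without MH replicate 1 and 18 with array weights, and 0 by the methods' t-test after Benjamini-Hochberg adjustment. Rrm1 was the only other gene of the pathway lists past the threshold, at 1.44 (standard error 0.23, adjusted p = 0.0378 from limma), and it passed under 8 of 19 alternatives, where its adjusted p ran from 0.00836 to 0.241 and was lost on leaving out either MH, control SHPC replicate 1 or control SHPC replicate 2, but not control SHPC replicate 3. Leaving out a BM-MC sample, which this fit also used, was not run. For the rest, the lowest p of each list belonged to Mycl (-0.79), Rrn3 (-0.59), the polymerase I initiation factor, Gar1 (0.60), Rcl1 (0.41), Ddx24 (-0.52), Nol3 (-1.69), also known as a repressor of apoptosis, Ran (0.41) and Sat1 (-0.58), a polyamine acetyltransferase, with adjusted p between 0.101 and 0.213 from limma.

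Between SHPCs with BM-MCs and MHs, limma called 0 of the 10 members in either direction, where 0.379% of all genes were higher and 0.0276% lower. Myc reached an unadjusted p = 0.0229 in limma, where 6.79% of all genes were higher and 6.74% lower at an unadjusted p under 0.05. The methods' t-test found Odc1 lower at an unadjusted p under 0.05, where it put 4.21% of all genes higher and 5.54% lower, and 0 members after Benjamini-Hochberg adjustment. Myc lay above both MHs in all BM-MC samples, and Nop58, Npm1 and Odc1 lay below them, with differences of -0.24, -0.18 and -0.24, against 14.7% and 18% of all genes without overlap, although for Nop58 the nearest values differ only beyond the printed decimals. The adjusted p of these 3 ran from 0.453 to 0.601 in limma. Of the 10 members 4 were above 0 and 6 below, against 47.3% and 52.7% of all genes, and their median was -0.09 against -0.02. These groups share no set of 4 arrays, so position on the slide and group cannot be told apart here, and with the set as a block, which rests on the controls in both sets, the median was 0.09, Myc was 1.005 higher, and Nop58, Npm1 and Odc1 were at 0.085, 0.12 and 0. Nop58 was at -0.42 without MH replicate 1 and -0.06 without MH replicate 2. Proliferation genes were above 0 in 19 of 20 cases with a median of 1.57, and 7 passed the adjusted threshold, among them Ccna2 at 2.53 (adjusted p = 0.0244 from limma), Top2a at 2.35 (adjusted p = 0.0255 from limma) and Ccnb1 at 2.25 (adjusted p = 0.0244 from limma). These calls were not stable, and 0 of the 20 genes passed after quantile normalization, with normexp and quantile normalization on those 7 arrays, without the filter on dim probes, with the set as a block, with only these groups in the fit, without MH replicate 1, MH replicate 2 or BM-MC replicate 2, or by the methods' t-test after Benjamini-Hochberg adjustment. Bub1b also passed, but it was well above background in only 1 of 3 BM-MC arrays and in neither MH, so no fold is given. The lowest p of the other lists belonged to Mycl (-0.54), Rrn3 (-0.59), Naf1 (-0.34), Nop14 (-0.30), Wdr12 (-0.30), Nol3 (-1.07), Zfp622 (-0.36), Azin1 (0.55), Rrm1 (0.82) and Rps26 (-0.29), and none passed the threshold, with adjusted p between 0.271 and 0.448 from limma.

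Per sample, Myc and the other 9 members did not follow one order. Relative to the control SHPC mean, the other 9 members averaged -0.20, -0.30 and -0.15 with BM-MCs, 0.05, 0.05 and -0.10 in control SHPCs and -0.18 and 0.04 in MHs. Control SHPC replicate 3 thus stood between the other controls and the BM-MC samples, with which it shared the second set of 4 arrays. The 20 proliferation genes averaged -1.19, -0.79 and -0.46 with BM-MCs and -2.43 and -2.11 in MHs. BM-MC replicate 1, the sample with the most Myc, had the lowest proliferation level of the SHPC samples. The other samples did not keep this order. BM-MC replicate 2 had the least Myc of its group but a lower proliferation level than BM-MC replicate 3. The MHs, with Myc below every BM-MC sample, had the lowest proliferation levels of all. Across the 8 samples Pearson's r with Myc was below 0 for all 9 other members, from -0.70 for Bop1 and -0.66 for Odc1 to -0.001 for Pes1, which is given as a description because the samples form 3 groups and share their arrays' scaling.

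**Figure D4:**
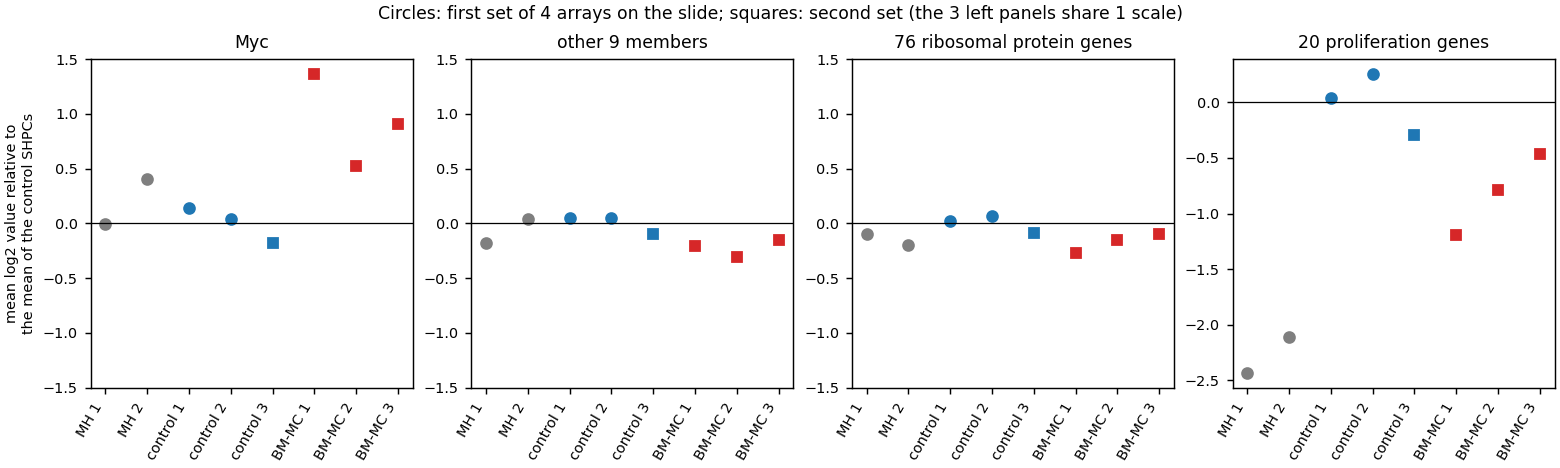
Mean log2 value relative to the control SHPC mean (y axis) in each of the 8 samples (x axis) for Myc, the other 9 members, 76 ribosomal protein genes and 20 proliferation genes; grey is MHs, blue control SHPCs and red SHPCs with BM-MCs, circles mark the first and squares the second set of 4 arrays. Myc is highest in BM-MC replicate 1, where the proliferation genes are at -1.19, while they are at -2.43 and -2.11 in the MHs.

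Cell type markers were compared between the groups as well, and none of them passed the adjusted threshold in any of the 3 comparisons. Their part in the differences of the members was not tested. With BM-MCs, 4 of 5 erythroid markers were below the controls and 1 was above (median -1.30). The leukocyte markers S100a8 and S100a9, which are abundant in neutrophils, differed by -1.46 (adjusted p = 0.118 from limma) and -1.84 (adjusted p = 0.0703 from limma), whereas Ptprc was at 0.10 and Cd3e, Cd79b and Mpo did not pass the filter on dim signals. All 8 hepatocyte markers were below 0 (median -0.13), as were 3 of 4 biliary markers (median -0.50). Of 6 Kupffer cell markers 3 were above 0 (median 0.11), of 5 endothelial markers 4 (median 0.21), and of 7 stellate cell markers 6 (median 0.15). In control SHPCs against MHs all 4 measured biliary markers were above 0 (median 1.10, 2 of them at an unadjusted p under 0.05 from limma) and 5 of 6 Kupffer cell markers were below 0 (median -0.57, 3 of them at an unadjusted p under 0.05), with 0 past the adjusted threshold. Of all genes, limma put 7.72% higher and 12.6% lower at that unadjusted p, and 42.7% were above 0 and 57.3% below. The hepatocyte, endothelial and stellate cell markers had medians of 0.10, -0.24 and 0.10 there. In BM-MCs against MHs the 4 biliary markers were again above 0 (median 0.90) and 5 of 6 Kupffer cell markers below 0 (median -0.36). All 5 erythroid and all 3 measured leukocyte markers were below 0 in BM-MCs against MHs (medians -0.72 and -0.82). In control SHPCs against MHs 4 of 5 and 2 of 3 were above 0 (medians 0.74 and 0.64). The part of these markers in the differences of Fbl, the ribosomal protein genes and the proliferation genes from MHs was not tested. In summed linear signal the Kupffer cell markers ran from 29.7 to 42.6 with BM-MCs, 23.4 to 34.3 in control SHPCs and 42.2 to 49.6 in MHs, and the hepatocyte markers from 734 to 930, 835 to 984 and 815 to 848.

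The 5 genes whose log2 values over the 8 samples were most like those of Myc, among 14401 genes, were Wdr13 (Pearson's r = 0.95), Ctnnal1 (0.94), Fer (0.93), Nid1 (0.93) and Rhbdf2 (0.92). Their differences between SHPCs with BM-MCs and controls were 0.14, 0.68, 0.33, 0.25 and 0.35, smaller than that of Myc, with adjusted p between 0.261 and 0.498 from limma. The 5 genes most like the mean of the other 9 members were Dcun1d5 (0.98), Cstf3 (0.98), Ppil3 (0.98), Rpl14 (0.97) and Snu13 (0.96), with differences of -0.35 to -0.23 and adjusted p between 0.249 and 0.361 from limma. Both sets are descriptions over 8 samples that were picked for this likeness.

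The E-box CACGTG was searched in RefSeq promoter windows (GRCr8) of 250 bases before and 50 after the start site. The motif reads the same on both strands. Windows were matched for Ncl, Npm1, Fbl, Nop56, Nop58, Pes1, Polr1b and Odc1, and Myc and Bop1 were not matched. The windows of Pes1 and Fbl held the motif, 2 of 8 (25.0%), against 6.42% of all 33469 windows. The stretches that hold it are shown on the plus strand because these are the 2 members with a match, with the motif in capitals.
Pes1, chr14:83074246-83074345, before the start site: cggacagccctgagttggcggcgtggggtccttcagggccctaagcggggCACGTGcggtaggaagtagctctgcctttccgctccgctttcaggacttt
Fbl, chr1:92597416-92597445, after the start site: ggcgcttttttcCACGTGtgaaagcctgag
The first motif letter lies 50 bases before the start site in Pes1 and 21 bases after it in Fbl. Their differences with BM-MCs against control SHPCs were 0.03 for Pes1 and -0.39 for Fbl. Among the lists the share was 38.5% of 39 windows for the small subunit processome, 30.6% of 36 for large subunit assembly, 30.8% of 13 for polyamine metabolism, 26.7% of 15 for the Myc/Max network, 21.4% of 14 for snoRNP and assembly factors and 1 of 5 windows for subunit export and maturation. It was 14.3% of 28 for other Myc targets and 14.3% of 7 for nucleolar chaperones and helicases, and 7.94% of 63 for ribosomal proteins, 6.67% of 15 for RNA polymerase I transcription and 6.25% of 16 for proliferation. A match describes the letters in a window and not a bound site.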

How the data were processed

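RNA from cells taken by LMD was labeled with Cy3 and hybridised to Agilent rat arrays. The authors deposited the processed signal of Feature Extraction 10.7, an intensity after background subtraction with no scaling between arrays, and a value table with the same signals, used here because 1 scanner file, that of control SHPC replicate 2, has only 20903 features out of 62976. Spots marked as outliers were left out, log2 signals were set relative to each array's 75th percentile, and each probe's spots were averaged. A probe entered the test if clearly above background on 3 or more of 7 arrays (those marked in full). This left 23065 probes for limma 3.58.1 under R 4.3.3 (lmFit, eBayes), with Benjamini-Hochberg adjustment over all of them; the 6 SHPC samples formed the fit for BM-MCs against controls and all 8 that for MHs. The brightest tested probe stood for a gene. Named genes are the members, up to 4 called genes of each list and comparison with groups that do not overlap (otherwise the gene with the lowest p), and the 5 most like Myc or the other members. Some genes that this rule or the marker lists hold are not reported here. Members and lists were chosen with earlier results of these data known. On simulated data the fit recovered 42.0% of probes changed 2-fold and 78.0% of those changed 4-fold for BM-MCs against controls. The simulated noise was independent between probes and arrays, with each probe's spread pooled over the 8 samples. It held no shifts shared within an array or a set of 4 arrays, so recovery in the real data may differ. Alternatives covered scaling, background, filters, spots, probes, variance models, blocks, the methods' t-test and leaving out samples. The number of arrays limits the precision.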

Additional observations from a re-analysis of the deposited data

How the results depend on the processing

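No member passed the adjusted threshold under any alternative with an adjusted p. Over all probes, 5 were called higher and 0 lower with BM-MCs against control SHPCs, but 207 and 7 without scaling and 0 in either direction without the filter on dim probes. For BM-MCs against MHs 74 and 4 were called, but 46 and 4 with median scaling, 7 and 0 after quantile normalization, 5 and 0 with normexp and quantile normalization on the 7 arrays other than control SHPC replicate 2 (below, normexp on 7 arrays) and 0 and 1 without the filter, and for control SHPCs against MHs 212 and 49, but 114 and 10 with normexp on 7 arrays and 124 and 12 without the filter. Over genes, leaving out 1 sample moved the calls from 4 and 0 to 254 and 31 (without control SHPC replicate 3) and to 0 and 0 (without either other control, BM-MC replicate 1 or BM-MC replicate 2), with 8 and 2 without BM-MC replicate 3, in the first comparison, from 145 and 32 to 34 and 3 (without MH replicate 1), 82 and 13 (without MH replicate 2) and, without control SHPC replicates 1, 2 and 3 in turn, 68 and 3, 68 and 1, and 140 and 62 for control SHPCs against MHs, and from 55 and 4 to 0 and 1 (without MH replicate 1), 3 and 1 (without MH replicate 2), 0 and 0 (without BM-MC replicate 2) and 57 and 1 (without BM-MC replicate 3) for BM-MCs against MHs. An intensity trend gave 15 and 3, 248 and 145, and 86 and 16 genes in these comparisons, and array weights 160 and 42, 231 and 112, and 53 and 3. For BM-MCs against control SHPCs the members' median moved to -0.38 with each array scaled to its median and to -0.083 with the set of 4 arrays as a block or within the second set, a grouping by slide position chosen after seeing the data. For control SHPCs against MHs it was -0.11 without scaling, 0.14 with the mean over probes of a gene and 0.055 with the set as a block or within the first set. For BM-MCs against MHs it was -0.29 with median scaling, -0.17 without scaling and 0.092 with the set as a block. The methods' t-test gave 2, 1 and 1 members at an unadjusted p under 0.05 in these 3 comparisons, where it put 8.24%, 7.49% and 4.21% of all genes higher and 6.96%, 10.9% and 5.54% lower. Leaving out 1 sample gave medians of -0.062 to 0.055 for control SHPCs against MHs and -0.205 to -0.038 for BM-MCs against MHs.

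Directions that turned were mostly those of small differences, and the cause was not tested. For BM-MCs against control SHPCs, Pes1 was -0.16 with median scaling, Ncl was 0.023 after quantile normalization, 0.066 with normexp on 7 arrays and 0.071 with the set as a block or within the second set, and Npm1 was 0.028 with normexp on 7 arrays and 0.09 with the set as a block or within it. For control SHPCs against MHs, array weights gave Ncl 0.046, Npm1 0.005 and Odc1 0.014, the mean over probes gave Ncl 0.16 and Odc1 0.13, and the set as a block or the first set alone gave Ncl 0.075, Npm1 0.034, Pes1 0.004 and Odc1 0.034. For BM-MCs against MHs, median scaling gave Fbl -0.12, Nop56 -0.19 and Pes1 -0.20, no scaling Fbl -0.005, Nop56 -0.074 and Pes1 -0.079, array weights Nop56 -0.015 and Pes1 -0.001, the mean over probes Ncl 0.033, and the set as a block Ncl 0.145, Npm1 0.124 and Nop58 0.085. Leaving out 1 sample gave Pes1 -0.003 to 0.067 for BM-MCs against control SHPCs. For control SHPCs against MHs it gave Myc -0.405 to 0.008, Ncl -0.114 to 0.089, Npm1 -0.125 to 0.034, Nop56 -0.157 to 0.519, Pes1 -0.053 to 0.004, Polr1b -0.605 to 0.017 and Odc1 -0.105 to 0.034, and for BM-MCs against MHs Fbl -0.039 to 0.173, Nop56 -0.332 to 0.345 and Pes1 -0.021 to 0.039.

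Replicate numbers were shared across groups, and same-numbered samples deviated together with r of 0.13, 0.08 and 0.17 for control SHPCs and BM-MCs, which does not pair them. With the replicate number as a block the control SHPC to MH difference of Ncl was 0.044 and of Npm1 0.015, and the BM-MC to MH difference of Nop56 was -0.026. Under this block 0 of 20 proliferation genes passed for BM-MCs against MHs, where 7 did without it.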
